A study of Mus musculus with 4 samples.

Results

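The p53 pathway was followed through 41 genes, namely Trp53 itself, the genes that feed back on p53, and known p53 target genes in cell cycle arrest, apoptosis, DNA repair and metabolism. The members were picked by name from knowledge of the pathway, with earlier results of these data known, and all 41 were found among the 49997 genes of the count table. RNA-seq libraries came from E14 mouse ESCs, which are pluripotent cells derived from the early embryo, and the study used them to ask how the transcriptome changes when YTHDF2, a reader protein of m6A-modified mRNA, is depleted. Of the 4 libraries, 2 carried a scrambled short hairpin RNA (shScramble) and 2 carried a hairpin against Ythdf2 (shYthdf2). Cells of both groups were infected with a lentiviral vector that holds a U6-driven hairpin, TagRFP and a puromycin resistance gene, were kept under puromycin as stable lines, and grew without feeder cells on gelatin in medium with serum replacement and leukemia inhibitory factor. The study describes the ESC line as carrying a MERVL-driven tdTomato reporter and lists a pair of hairpins against Ythdf2, of which the labels name neither for these libraries. The replicates are described as independent, and p-values here measure only the spread between these libraries.

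p53 is a transcription factor that is made all the time and destroyed quickly, because MDM2, a ubiquitin ligase, tags it for the proteasome. DNA damage and other stresses block that destruction, and p53 then binds its sites near target genes that halt the cell cycle, repair DNA, tune metabolism or kill the cell, and also switches on Mdm2, which closes a feedback loop. Mouse ESCs hold much p53 and are known for a weak G1 checkpoint, and p53 in these cells is known to lower Nanog and to favor differentiation. Because p53 is controlled mainly as a protein, its amount, modification and location were not measured by these libraries.

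The libraries held between 31113006 and 36422510 counted reads. For Ythdf2 itself the shScramble libraries held 3365 and 2760 reads and the shYthdf2 libraries 1086 and 1082 reads, which gave 93.4 and 87.6 CPM (the count scaled to a library total of 1e+06 reads) against 31.8 and 30.2 CPM, a log2 fold change (log2FC, shYthdf2 minus shScramble) of -1.55 (SE 0.11, edgeR adjusted p = 0.00069). ESC markers were abundant in every library, with 8 genes summing to 6098 and 5986 CPM in shScramble and 5684 and 5243 CPM in shYthdf2. Of these 8, edgeR called Tdgf1 lower, and DESeq2 called Tdgf1 and Nanog lower, Nanog with a log2FC of -0.41 (edgeR adjusted p = 0.059). Fibroblast or feeder markers were low, with 8 genes summing to 12.9 to 28.7 CPM over the 4 libraries and Dcn at 0 reads in every one.

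Many p53 target transcripts were higher in the knockdown, and the transcript of p53 itself did not pass the test. All 41 members passed the filter on low counts, and 16 of them were called higher and 0 lower in shYthdf2 (edgeR's quasi-likelihood test, Benjamini-Hochberg adjusted p under 0.05 over the 18341 genes tested), where 2.43% of all tested genes were called higher and 1.49% lower. At an unadjusted p under 0.05 there were 27 members higher and 2 lower, against 11% and 9.8% of all genes. Both shYthdf2 libraries lay above both shScramble libraries in 30 members and below them in 2, the other 9 overlapping, where the shares of all tested genes were 26.2% and 25.5%. DESeq2 at the same threshold called 20 members higher and 1 lower, against 5.58% and 4.24% of the 14528 genes to which it gave an adjusted p, and its 20 held all 16 of the edgeR calls. The log2FC was positive in 36 members and negative in 5, with a median of 0.43 beside 0.00 over all genes tested. Bulk libraries cannot tell a change in RNA per cell from a change in the share of cells that express a gene.

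The size of the difference ranged from small to more than 3-fold. The 16 called members had log2FC values from 0.53 for Trp53inp1 to 1.76 for Ptprv, and 6 of them (Ptprv, Tap1, Dcxr, Plk2, Ephx1 and Btg2) changed by at least 1 on the log2 scale. At the other end, 12 of the 41 members lay within 0.25 of no change, against 9072 of all 18341 genes tested. The highest value of all 16 called members was in shYthdf2 replicate 1, and the lowest was in shScramble replicate 2 for 12 of them and in shScramble replicate 1 for 4. Relative to the shScramble mean, the median member stood at 0.59 (log2) in shYthdf2 replicate 1 and at 0.37 in shYthdf2 replicate 2, while the shScramble libraries lay 0.04 above and below that mean.

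**Figure D1:**
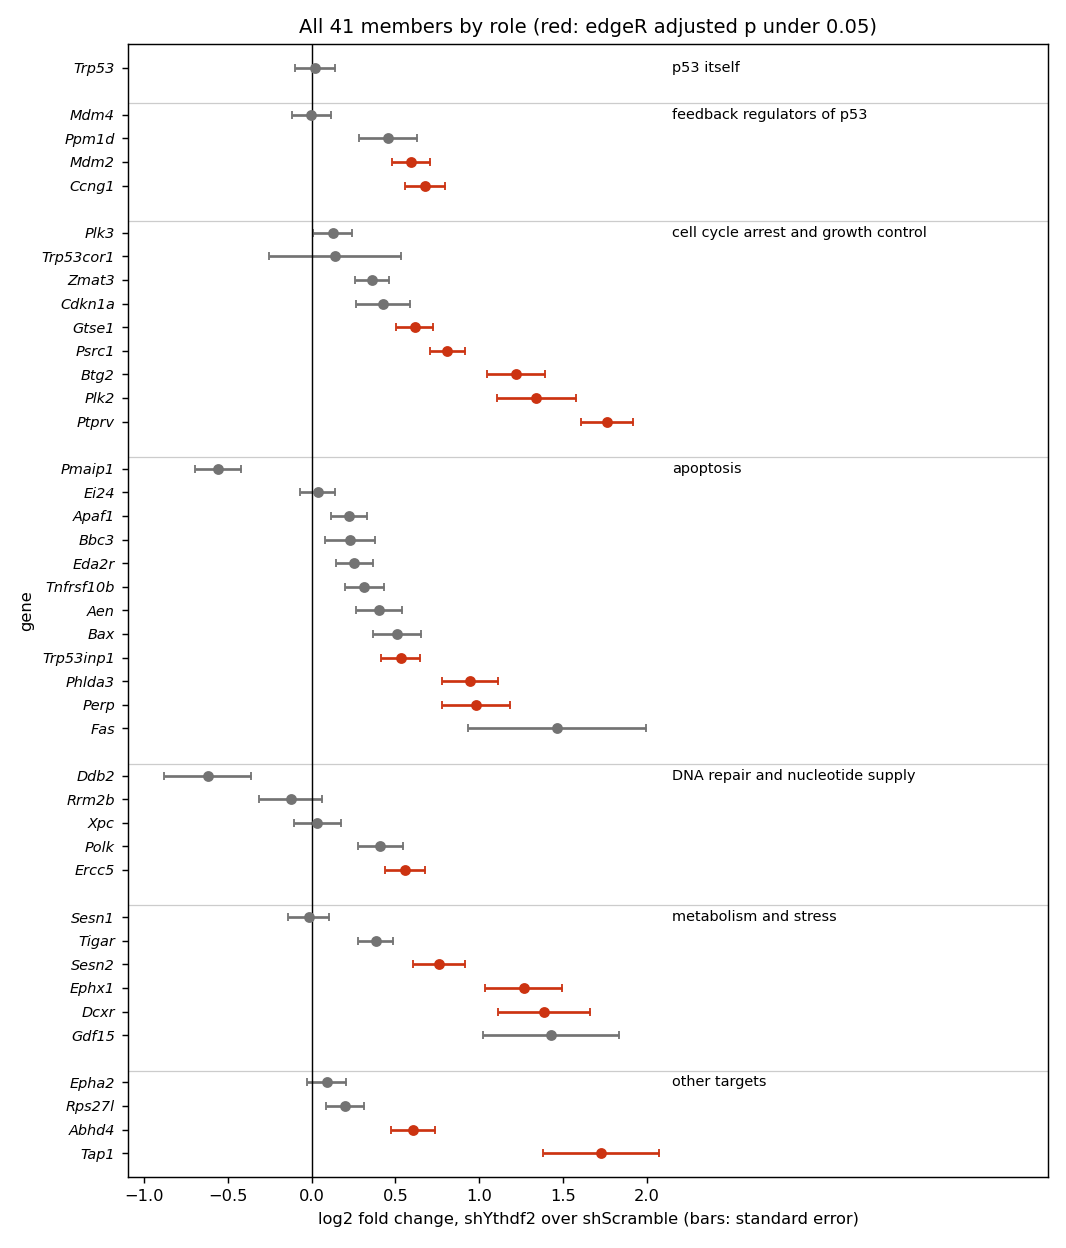
The log2FC of each of the 41 members (shYthdf2 minus shScramble, horizontal axis) with its standard error, grouped by function. Members with an edgeR adjusted p under 0.05 are marked. The 16 marked points all lie to the right of 0, and Ddb2 at -0.62 and Pmaip1 at -0.56 lie farthest to the left.

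p53 recognizes a pair of 10-base blocks, each the same read from either strand, and a RefSeq window of 250 bases before to 50 bases after the annotated start was at hand for 31 of the 41 members (GRCm38.p6). An exact match to 1 block of the p53 consensus, searched on both strands, lay in the windows of 13 of the 31 members (41.9%), against 9.55% of the windows of all 27025 genes with one. Among members with a window the match was found in 4 of the 13 called higher and in 9 of the 18 not called. Full sites, 2 blocks at most 13 bases apart with at most 2 mismatches in all, lay in 6 of the 31 members (19.4%) and in 4.71% of all windows, in 2 of the 13 called higher and in 4 of the 18 not called. A match is a string of letters and not a bound site, and many p53 sites lie outside such windows. The annotated start of a window need not be the outermost start of the gene as counted. The Abhd4 block, for example, lies inside the counted gene (chromosome 14, 54254129 to 54269169). The members were chosen as genes of the p53 pathway, so their share against all windows is not independent of that choice. The 4 stretches from members called higher are given below, 5′ to 3′ along the gene, with the matching block in capitals and 10 bases on each side. Those of Cdkn1a and Bax, added after their values had been seen, come from target genes that hold the block but were not called.
Mdm2 (chr10:117710925-117710954, minus strand): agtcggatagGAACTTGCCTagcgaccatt
Ccng1 (chr11:40755452-40755481, minus strand): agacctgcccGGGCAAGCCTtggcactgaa
Gtse1 (chr15:85859945-85859974, plus strand): gagcaagttgGGGCTTGCCTctgacttgcc
Abhd4 (chr14:54259274-54259303, plus strand): cgacccggcaGGGCTTGTTTactatggctg
Cdkn1a (chr17:29090918-29090947, plus strand): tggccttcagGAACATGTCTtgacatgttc
Bax (chr7:45467080-45467109, minus strand): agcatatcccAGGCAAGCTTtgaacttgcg

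The members without a window were Ddb2, Perp, Pmaip1, Ptprv, Rrm2b, Tnfrsf10b, Trp53cor1, Trp53inp1, Xpc and Zmat3. In the Ccng1 stretch the bases just before the capitals form a second block with 1 mismatch, and the same holds for Gtse1, so that both windows hold a full site without a gap. The windows of Cdkn1a and Bax hold a full site too, and the best match of Cdkn1a has 0 mismatches and 12 bases between the blocks. In the Cdkn1a stretch the bases just after the capitals also form a block with 1 mismatch, which makes a full site without a gap. Ptprv, the called member with the largest fold change, is among those without a window.

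Trp53 (chromosome 11, 69580348 to 69591873, plus strand, mm10) had the highest level of the members per exonic length. It stood at 536 and 454 CPM in shScramble and at 539 and 465 CPM in shYthdf2. The libraries of the 2 groups interleave, and the difference between replicates exceeded that between groups. The log2FC was 0.02 (SE 0.12, edgeR adjusted p = 0.95), and it was between -0.09 and 0.15 when 1 library was left out. Per kilobase of exon, Trp53 had a mean of 216 CPM in shScramble and 219 in shYthdf2, ahead of Bax with 140 and 199.

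Among the regulators that feed back on p53, Mdm2 and Ccng1 rose, and Mdm4 and Ppm1d did not pass the test. Mdm2 (chromosome 10, 117688875 to 117710758, minus strand), the ubiquitin ligase and p53 target, had 155 and 149 CPM in shScramble and 247 and 211 CPM in shYthdf2. Both knockdown libraries lay above both controls, by a gap wider than the spread within either group. Its log2FC was 0.59 (SE 0.11, edgeR adjusted p = 0.025). Ccng1, whose product cyclin G1 recruits a phosphatase to MDM2, had 288 and 253 CPM against 467 and 396 CPM, a log2FC of 0.67 (SE 0.12, edgeR adjusted p = 0.019). The groups did not overlap for Ccng1 either.

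Ppm1d encodes the phosphatase WIP1, which removes activating phosphates from p53 and the kinases above it. It had 40.8 and 29.5 CPM in shScramble and 53.4 and 43.0 CPM in shYthdf2, a log2FC of 0.46 (SE 0.17, edgeR adjusted p = 0.17). The lower knockdown library stood only just above the higher control. Mdm4, the MDM2 relative that holds p53 inactive, had 256 and 301 CPM against 261 and 296 CPM, with a log2FC of 0.00 (SE 0.12, edgeR adjusted p = 0.99). In Mdm4 both groups spanned nearly the same range.

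Of the 9 members in cell cycle arrest and growth control, 5 were called higher, with a median log2FC of 0.61. Ptprv, a receptor-type phosphatase gene known as a p53 target in G1 arrest, had 18 and 14.3 CPM in shScramble and 58.3 and 51.6 CPM in shYthdf2. Both knockdown libraries stood far above both controls, and the log2FC of 1.76 (SE 0.15, edgeR adjusted p = 0.0015) was the largest among the members. Btg2, an antiproliferative gene whose protein binds the CCR4-NOT deadenylase, had 41.5 and 32.9 CPM against 101 and 72.0 CPM, a log2FC of 1.22 (SE 0.17, edgeR adjusted p = 0.0084). Plk2, a polo-like kinase, had 48.4 and 30.7 CPM against 123 and 77.8 CPM, a log2FC of 1.34 (SE 0.24, edgeR adjusted p = 0.019). In Btg2 and Plk2 the groups were separate, with a wide spread between the knockdown libraries.

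The 2 others that rose in this group were tighter between replicates. Psrc1, which encodes a microtubule-associated protein, had 122 and 117 CPM in shScramble and 217 and 203 CPM in shYthdf2, a log2FC of 0.81 (SE 0.10, edgeR adjusted p = 0.0052). Gtse1, whose protein carries p53 out of the nucleus in G2, had 221 and 195 CPM against 336 and 301 CPM, a log2FC of 0.61 (SE 0.11, edgeR adjusted p = 0.021). Neither gene had a control library near the knockdown values.

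Cdkn1a (chromosome 17, 29090979 to 29100722, plus strand), which encodes the cyclin-dependent kinase inhibitor p21 and is the best known p53 target, was not called. It had 59.7 and 73.4 CPM in shScramble and 103 and 75.5 CPM in shYthdf2, a log2FC of 0.43 (SE 0.16, edgeR adjusted p = 0.17). A single library stood apart, shYthdf2 replicate 1, and the other knockdown library lay just above the higher control. The log2FC was 0.18 without shYthdf2 replicate 1 and 0.64 without shYthdf2 replicate 2. Zmat3, an RNA-binding zinc finger gene, had 158 and 149 CPM against 197 and 198 CPM (log2FC 0.36, edgeR adjusted p = 0.080), with separate groups. DESeq2 called Zmat3 higher (adjusted p = 0.024). Plk3, a stress-responsive polo-like kinase, had 43.1 and 46.2 CPM against 49.8 and 47.6 CPM, with a log2FC of 0.12. The long noncoding RNA Trp53cor1, or lincRNA-p21, was read 37 to 52 times per library, with a log2FC of 0.14 (SE 0.39), and a difference within that error was not detectable at this depth. It shares 22.7% of its exonic length with Gm41556 on the opposite strand.

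Cdkn1a, Trp53cor1 and Tap1 are also listed on extra contigs of chromosome 17 in the annotation, and the levels per length given here use the chromosome copy only.

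**Figure D2:**
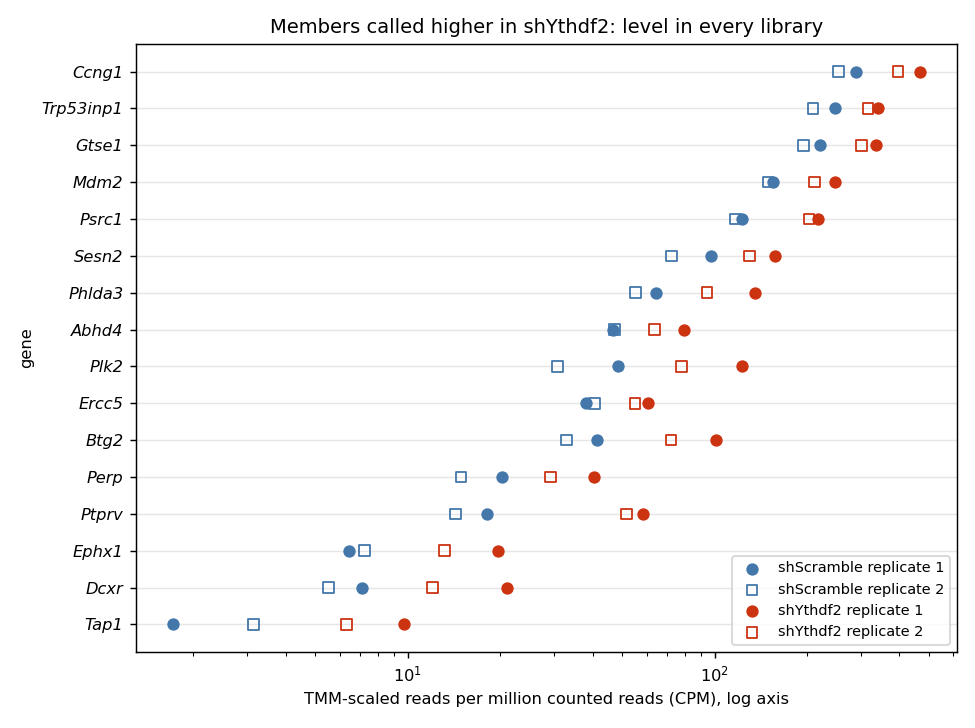
The level in CPM (log scale) of the 16 members called higher, in each of the 4 libraries, with 1 point for a library. Both shYthdf2 points lie above both shScramble points in all 16 genes, and shYthdf2 replicate 1 is the highest library in each.

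Of the 12 apoptosis members 3 were called higher, with a median log2FC of 0.36. Perp, which encodes a membrane protein of desmosomes that acts in p53-dependent death, had 20.3 and 14.9 CPM in shScramble and 40.3 and 29.2 CPM in shYthdf2, a log2FC of 0.98 (SE 0.20, edgeR adjusted p = 0.031). Phlda3, an inhibitor of AKT signaling, had 64.2 and 55.1 CPM against 135 and 94.3 CPM, a log2FC of 0.94 (SE 0.17, edgeR adjusted p = 0.019). Trp53inp1, whose protein promotes the p53 stress response, had 246 and 209 CPM against 342 and 316 CPM, a log2FC of 0.53 (SE 0.11, edgeR adjusted p = 0.037). In these 3 genes the groups did not overlap, though Trp53inp1 no longer passed without shScramble replicate 2 (log2FC 0.42, edgeR adjusted p = 0.20).

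The 3 BCL-2 family members, which carry out p53-dependent death, did not pass in edgeR, and their values differed in sign. Bax, the pore-forming effector, had 140 and 118 CPM in shScramble and 207 and 160 CPM in shYthdf2, a log2FC of 0.51 (SE 0.14, edgeR adjusted p = 0.080). It passed as higher in 5 of 13 other settings, DESeq2 among them (adjusted p = 0.013), and its log2FC was 0.31 without shYthdf2 replicate 1. Bbc3, which encodes the BH3-only protein PUMA, had overlapping groups, with a log2FC of 0.23 (edgeR adjusted p = 0.43). Pmaip1, which encodes the BH3-only protein NOXA, had 43.3 and 51.7 CPM in shScramble and 33.6 and 30.8 CPM in shYthdf2, a log2FC of -0.56 (SE 0.14, edgeR adjusted p = 0.052). Pmaip1 thus lay below both controls in both knockdown libraries, opposite to most members. It passed as lower in 8 of the 13 other settings that gave an adjusted p, DESeq2 among them (adjusted p = 0.0084), and not without shScramble replicate 2, where the log2FC was -0.43 (edgeR adjusted p = 0.26).

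Other apoptosis members did not pass. Aen, a nuclease, had 183 and 145 CPM in shScramble and 236 and 197 CPM in shYthdf2 (log2FC 0.40, edgeR adjusted p = 0.14). The death receptor gene Fas had only 20 and 10 reads against 49 and 36 reads, and its log2FC of 1.46 (SE 0.53, edgeR adjusted p = 0.16) is accordingly loose. Per exonic length Fas had the lowest mean level of the members in shScramble, and Trp53cor1 the lowest in shYthdf2. Tnfrsf10b (a TRAIL receptor gene) and Eda2r (an ectodysplasin receptor gene) had log2FC values of 0.31 and 0.25, and Apaf1, the apoptosome scaffold gene, one of 0.22. In each of these 3 the knockdown libraries lay above the controls without passing the test. Ei24, at 0.04, had overlapping groups.

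DNA repair and nucleotide supply had the lowest median of the groups with more than 1 member, a log2FC of 0.03, and 1 of its 5 members was called higher. The one that rose was Ercc5, which encodes the XPG endonuclease of nucleotide excision repair. It had 38.0 and 40.6 CPM in shScramble and 60.6 and 55.0 CPM in shYthdf2, a log2FC of 0.56 (SE 0.12, edgeR adjusted p = 0.037), and missed the threshold without shScramble replicate 1 (edgeR adjusted p = 0.081). The groups of Ercc5 were well apart.

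The damage recognition genes of the same repair route, Xpc and Ddb2, did not pass. Xpc had 24.5 and 26.9 CPM in shScramble and 25.3 and 27.3 CPM in shYthdf2, with a log2FC of 0.03. Ddb2 had 8.25 and 9.90 CPM against 4.65 and 7.13 CPM, a log2FC of -0.62 (SE 0.26, edgeR adjusted p = 0.21), with both knockdown libraries below both controls. The counting did not use strand, and 33.6% of the exonic length of Ddb2 is shared with Acp2 on the opposite strand, so reads of the 2 genes there cannot be told apart. Polk, a translesion polymerase gene, had 24.9 and 26.7 CPM against 33.3 and 35.2 CPM (log2FC 0.41, edgeR adjusted p = 0.12). Rrm2b, which encodes the p53-inducible ribonucleotide reductase subunit, had 13.1 and 15.4 CPM against 12.0 and 14.2 CPM, with a log2FC of -0.13. Of these last members, Polk had separate groups and Rrm2b overlapping ones.

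Among the 6 metabolism and stress members, 3 were called higher, and the median log2FC of 1.01 was the highest of the function groups. Sesn2, a stress-induced inhibitor of mTORC1 signaling, had 97.6 and 72.2 CPM in shScramble and 158 and 130 CPM in shYthdf2, a log2FC of 0.76 (SE 0.16, edgeR adjusted p = 0.031). Dcxr, a carbonyl reductase gene, had 7.11 and 5.52 CPM against 21.1 and 12.0 CPM, a log2FC of 1.39 (SE 0.28, edgeR adjusted p = 0.029). Ephx1, which encodes microsomal epoxide hydrolase, had 6.44 and 7.24 CPM against 19.7 and 13.2 CPM, a log2FC of 1.27 (SE 0.23, edgeR adjusted p = 0.021). The groups did not overlap in any of the 3, and in Dcxr and Ephx1 shYthdf2 replicate 1 stood well above replicate 2.

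The related gene Sesn1 stood at 42.2 and 48.0 CPM in shScramble and 43.2 and 45.7 CPM in shYthdf2, with overlapping groups and a log2FC of -0.02 (edgeR adjusted p = 0.95). The difference between the sestrin genes was not tested. Tigar, a fructose bisphosphatase gene that turns glucose away from glycolysis, had 74.8 and 73.8 CPM against 94.1 and 99.3 CPM (log2FC 0.38, edgeR adjusted p = 0.078). Gdf15, a secreted stress cytokine gene, had 29 and 56 reads against 126 and 116 reads, a log2FC of 1.43 (SE 0.41, edgeR adjusted p = 0.084). Without shScramble replicate 1 the log2FC of Gdf15 was 0.96, and without shScramble replicate 2 it was 2.10. Tigar and Gdf15 had separate groups, and DESeq2 called both (adjusted p = 0.031 and 0.043).

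Of the 4 remaining targets, Tap1 and Abhd4 rose. Tap1, a subunit gene of the peptide transporter for antigen presentation, had 1.72 and 3.14 CPM in shScramble and 9.74 and 6.32 CPM in shYthdf2, from 62 and 99 reads against 333 and 226. Its log2FC was 1.73 (SE 0.35, edgeR adjusted p = 0.029), and the ratio between the 2 controls was larger than that between the knockdown libraries. Abhd4, a lipid hydrolase gene, had 46.8 and 47.2 CPM against 79.6 and 63.6 CPM, a log2FC of 0.61 (SE 0.13, edgeR adjusted p = 0.038), and missed the threshold without shYthdf2 replicate 1 (log2FC 0.44, edgeR adjusted p = 0.065). Rps27l, a ribosomal protein paralog, had 140 and 128 CPM against 165 and 142 CPM (log2FC 0.20), and Epha2, an ephrin receptor gene, had 200 and 169 CPM against 202 and 191 CPM (0.09). Rps27l and Epha2 did not pass. Rps27l has a close paralog, and how far the counting separates their reads was not tested.

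**Figure D3:**
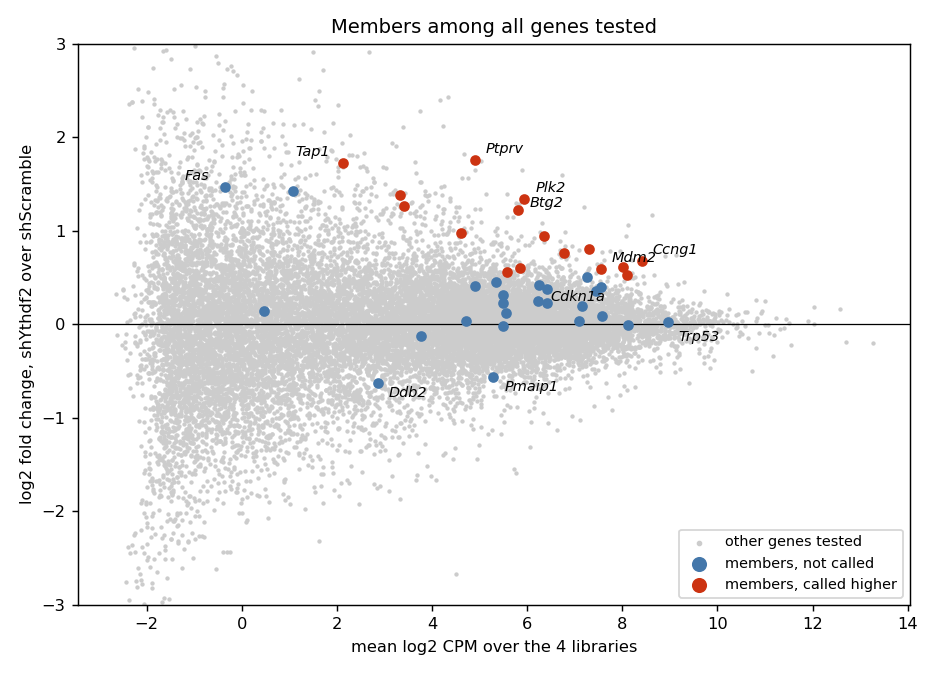
Log2FC (shYthdf2 minus shScramble, vertical axis) against mean level for all genes tested, with the 41 members marked and 49 genes beyond 3 on the log2 scale left out of the drawing. Most members sit above 0 across the range of levels, and Trp53 and Mdm4 sit on it.

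For 12 of the 16 genes the call held whichever library was left out. Mdm2, Ccng1, Btg2, Plk2, Ptprv, Psrc1, Perp, Phlda3, Sesn2, Dcxr, Ephx1 and Tap1 passed as higher in all 13 other settings that gave an adjusted p. Gtse1, Trp53inp1, Ercc5 and Abhd4 passed in 12 of 13, Gtse1 missing without shScramble replicate 2 (edgeR adjusted p = 0.065). Of the 25 members not called, 12 passed in at least 1 of those settings. Under the study's own criteria in DESeq2, which ask for a change of at least 1 on the log2 scale, 7 members were higher and 0 lower, against 1.63% and 1.25% of the 30565 genes with a read. These were 6 of the 16 (Ptprv, Tap1, Dcxr, Plk2, Ephx1 and Btg2) and Gdf15, which edgeR had not called.

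**Figure D4:**
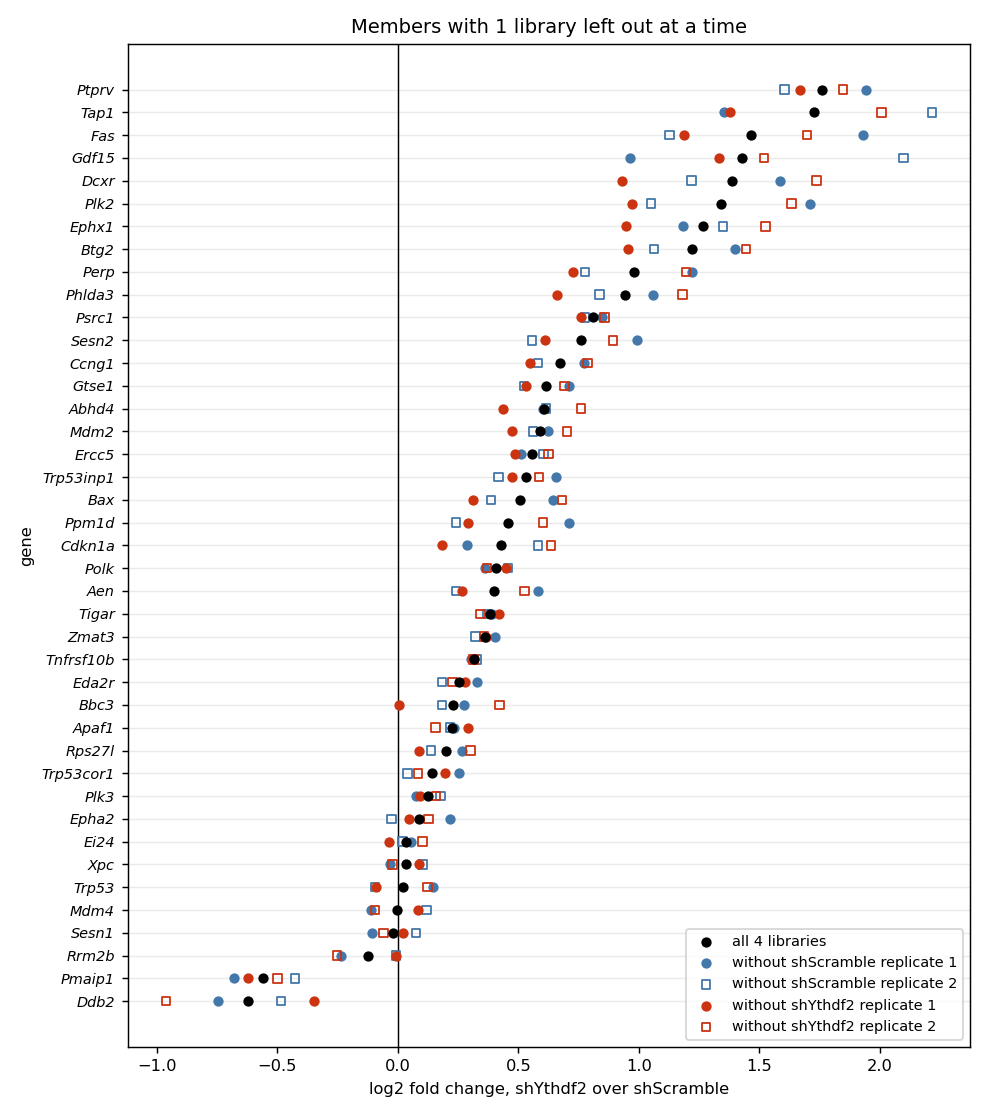
The log2FC of the 41 members (horizontal axis) from all 4 libraries and again without each library in turn. For the 16 members called higher every point lies to the right of 0, the lowest at 0.42 for Trp53inp1 without shScramble replicate 2. Some members not called have points to the left of 0, with Ddb2 at -0.96 without shYthdf2 replicate 2.

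Genes that act on p53 were mostly not called. Of 24 listed kinases, ubiquitin ligases, acetyltransferases and binding partners that act on p53, 23 had a row and were tested. By edgeR, 0 of them were called in either direction. At an unadjusted edgeR p under 0.05, 1 was higher and 3 were lower, against 11% and 9.8% of all genes tested. DESeq2 called Daxx higher and Atm and Atr lower. The median log2FC was -0.05, and 17 of the 23 values were negative, against 9128 of all 18341 genes tested. Atm and Atr, the kinases that start the damage response, were at 161 and 96.5 CPM in shScramble and 116 and 70.7 CPM in shYthdf2 on average, with log2FC values of -0.48 (edgeR adjusted p = 0.11) and -0.45 (0.064).

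Further p53 targets outside the members were listed as well. Of 30 listed, 28 were tested, 8 were called higher and 0 lower, and 25 had a positive log2FC, with a median of 0.48. Over all 18341 genes tested, 2.43% were called higher, 1.49% lower, 9213 had a positive log2FC and the median was 0.00. DESeq2 called 12 of the listed targets higher and 0 lower. The 8 that edgeR called were Trp73 (the p53 family member p73, log2FC 2.12), Lif (1.11), Cpt1c (0.93), Ak1 (0.88), Zfp365 (0.87), Pidd1 (0.80), Aldh4a1 (0.64) and Pml (0.60). Of 20 cell cycle genes that p53 lowers through p21 and the DREAM complex, 0 were called by edgeR, and DESeq2 called Mybl2 lower. At an unadjusted edgeR p under 0.05, 0 were higher and 2 lower, against 11% and 9.8% of all genes tested. Their median log2FC was -0.07, and 17 of the 20 values were negative, against 9128 of all 18341 genes tested.

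Markers of other cell states were counted as well. The 2-cell-like list, 7 genes of which 6 were tested and 3 called higher by edgeR (Zscan4a, Usp17la and Gm4340) and 1 by DESeq2 (Usp17la), summed to 31.2 and 51.2 CPM in shScramble and to 74.4 and 222 CPM in shYthdf2, with no listed gene at 0 in any library. That sum was highest in shYthdf2 replicate 2, while the called p53 members were highest in shYthdf2 replicate 1. Of 4 neuroectoderm markers, 3 were tested and Nes was called higher by edgeR and DESeq2, and the sums were 29.0 and 30.0 CPM against 46.6 and 39.7 CPM. Their part in the p53 target levels was not tested. Of the 7 mesoderm and endoderm markers and the 8 fibroblast markers, 0 were called by edgeR or DESeq2, with 0 higher and 1 lower at an unadjusted p under 0.05 in edgeR in each list.

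A sequence feature of the transcripts was counted as well. The core letters of the m6A motif, GGAC, occurred at a median of 4.64 per kilobase in the longest transcript of the 40 members with one (protein-coding, except for the noncoding Trp53cor1), on the transcript strand only, and at 4.19 per kilobase in 14064 tested genes. The median was 5.34 in the 15 called members with such a transcript and 4.21 in the 25 not called, with a range from 1.48 to 13.5 over the members with one. Ptprv, the called member with the largest fold change, had no such transcript and is left out of these medians. The letters do not show that a site is methylated, and methylation was not measured in these libraries.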

How the data were processed

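Poly(A)+ RNA of 4 ESC libraries was sequenced by the study in read pairs from a protocol that keeps strand. The authors deposited 1 table of raw counts per gene, with no normalization and no pooling. featureCounts 2.0.3 made them on the mm10 RefSeq annotation (per the file headers), ignoring strand and taking each read of a pair singly. The submitters' processing notes also name fastp 0.19.4, HISAT2 2.2.1 and DESeq2 1.40.2.

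Counts were tested with edgeR 4.0.16 (R 4.3.3): TMM scaling, filterByExpr (minimum count 10, minimum total 15), a quasi-likelihood F test, two-sided, with group as the only term and Benjamini-Hochberg adjustment over 18341 genes. These genes held 99.9% of the reads, and the biological coefficient of variation was 15.8%. The study used DESeq2 (p of at most 0.05, absolute log2 fold change of at least 1); DESeq2 1.42.0 and limma 3.58.1 (voom) were run as alternatives, beside other scalings, filters, halved counts, a replicate block and each library left out. With 2 libraries a group, an exact permutation test cannot go below 0.333 (two-sided). A count of 3 reads, the limit for 0 reads, was 0.0824 to 0.0964 CPM and covers counting error only. The script was tested on simulated data.

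The members and lists were chosen with earlier results of these data known, so no list was tested as a set. Every member is named. Values per library are given for the p53 regulators, every called member and up to 4 others per function group with the lowest p, of the other lists the called genes are named, and promoter stretches are shown for called members whose window holds the p53 block. Levels per kilobase divide CPM by exonic length on 1 chromosome. Promoter windows are from RefSeq (GRCm38.p6), transcripts from GENCODE M21.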

Additional observations from a re-analysis of the deposited data

How the results depend on the processing

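Over 14 other settings, 16 members were called higher under other scalings, a filter at a mean of 1 CPM, limma-voom and halved counts, 23 without a low-count filter, 20 with DESeq2 and 7 by the study's criteria. Members called lower went from 0 to 1 without a filter, with the filter at 1 CPM, with DESeq2 and with halved counts. Leaving out 1 library gave 16 to 22 members higher, 0 to 2 lower and a median log2 fold change of 0.37 to 0.59, the last without shYthdf2 replicate 2. The fit with the replicate number as a block called 26 higher and 2 lower. Over all genes the calls, 445 higher and 273 lower, became 1095 and 843 without a filter, 810 and 616 with DESeq2, 1851 and 1674 with the block, and up to 1175 and 1113 with 1 library left out (shYthdf2 replicate 2), so the members' counts are read against more calls there. Replicate 1 minus replicate 2 correlated between the groups at 0.23 over all genes tested, but the labels name no batch and there are only 2 pairs, so the libraries share only a number. Members near 0 changed sign: Mdm4 was 0.0022 without a filter and 0.0010 with limma-voom, and with 1 library left out Mdm4 ran from -0.11 to 0.12, Trp53 from -0.094 to 0.15, Xpc from -0.031 to 0.10, Sesn1 from -0.11 to 0.075, Epha2 from -0.027 to 0.22 and Ei24 from -0.035 to 0.10. The cause of these shifts was not tested. Of the values of single members, 501 kept direction and side of the threshold, 45 newly passed, 14 no longer passed and 12 changed sign. This tally includes the study's criteria, where a called member with a log2 change under 1 counts as no longer passing. The Ythdf2 difference, recomputed under the same settings after seeing the data, passed in all. Depth limits Fas and Trp53cor1, which had under 100 reads in every library.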
